A study of Dascyllus aruanus with 17 samples.

Results

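To ask whether the response of the brain to artificial light at night (ALAN) differs between the end of the night and the end of the day, transcript levels were compared in whole brains of *Dascyllus aruanus*, a damselfish of coral reefs. The quantity reported is the interaction of lighting and time, that is the log2 fold change of ALAN against control fish at night minus the same fold change by day. It draws on 14 of the 17 libraries of the series, and the other 3, stranded libraries that served the assembly, were not analysed here. By day there were 3 control and 3 ALAN brains, and at night 4 control and 4 ALAN brains, each library from 1 fish. They are called control day, ALAN day, control night and ALAN night brains here.

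All fish were wild members of 6 colonies and were habituated for 96 h, controls included. Control fish then stayed under the natural cycle of light and dark, while ALAN fish received dim white light through the natural dark phase for 72 h. Day brains were taken at ZT11 and night brains at ZT23, where ZT is zeitgeber time in hours after sunrise. ALAN night fish were therefore sampled with the lamps on and ALAN day fish in daylight. Light was applied to whole colonies. The standard errors, intervals and p-values below treat each fish as independent, which fish of the same colony may not be. Which colony a fish came from is not stated in the labels, so colony and treatment cannot be told apart. In whole-brain RNA, fewer cells of a type and less RNA per cell cannot be told apart either.

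Library totals ran from 14942952 to 23051193 expected counts, and libraries of the same group correlated across features with Pearson's r between 0.918 and 0.949. Of 21805 assembled features, 20782 passed the filter on low counts and were tested. Features carry the name of their best orthologue match, several features can share a name, and the DN number of the assembly is given where they do. The summed level of the list of neuronal markers lay between 4061 and 4967 CPM (counts scaled to a common library size) in every library, as fits the labelled tissue. Day brains held 4600 to 4967 CPM and night brains 4061 to 4348 CPM, without overlap. Marker lists of liver and plasma, skeletal muscle, inner ear, endothelium, photoreceptors and pituitary differed between libraries, and their values are given with the results.

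The vertebrate circadian clock is a feedback loop in which CLOCK and ARNTL (BMAL1) drive the period, cryptochrome and REV-ERB (NR1D1 and NR1D2) genes, whose products repress that drive. Light reaching the eyes and the pineal organ resets the loop each day. Light also raises neuronal firing, and firing induces the immediate-early genes, such as FOS, EGR1 and NPAS4, within minutes. These encode transcription factors, and their transcripts are widely read as a record of recent activity.

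No feature passed the main test for interaction, that of edgeR. In edgeR's quasi-likelihood test with Benjamini-Hochberg adjustment, 0 of 20782 features (0%) had an adjusted p under 0.05, and the smallest adjusted p was 0.121. At an unadjusted p under 0.05 there were 1278 features (6.15%), of which 692 (3.33%) had a positive and 586 (2.82%) a negative interaction. A threshold of 5% passes 1039 features where no feature differs. DESeq2, run as an alternative on the same counts, gave an adjusted p under 0.05 for 54 of 21662 features (0.249%), 34 positive and 20 negative. Of these 54, 53 were also tested with edgeR, all 53 had the same sign there, and 51 had an unadjusted edgeR p under 0.05. Among the 54 were 26 of the 30 named features of smallest edgeR p that are described below. A group with 10 or fewer counts in all occurred for 13 of the 54.

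The contrasts that make up the interaction differed in how many features they called. With the same edgeR adjustment, ALAN against control called 6 features at night (0.0289%) and 1 by day (0.00481%). Night against day called 430 features in controls (2.07%) and 214 under ALAN (1.03%). The interaction is a difference of 2 differences, and its median standard error (SE) over features was 0.413 on the log2 scale. It was 0.270 for ALAN against control at night and 0.313 by day. Values below are given for single features on that footing, each with its unadjusted and adjusted p, and the features named were chosen by their small p or by their list.

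Features at the low end of the p-values mostly had effects of ALAN of opposite sign at the 2 times. The effect of ALAN had opposite signs at night and by day in 613 of the 692 features with a positive interaction (88.6%), against 51.3% of all features with a positive value. Among the 586 with a negative interaction it had opposite signs in 537 (91.6%), against 52.9%. The median effect of ALAN in the positive set was 0.40 at night and -0.70 by day, and in the negative set it was -0.35 at night and 0.72 by day, on the log2 scale. The day effect was the larger of the pair in 68.2% of the positive and 73.7% of the negative set, compared with 58.2% and 60.1% of all features of each sign. With edgeR, the effect of ALAN at night had an unadjusted p under 0.05 in 31.9% of the positive and 23.5% of the negative set. The effect by day had it in 51.4% and 53.8%, so many of the signs belong to effects short of that threshold. These sets were chosen on the interaction, so opposite signs are partly built in and no test was made.

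The group farthest from the mean of the other 3 was most often control day. It was the farthest and higher in 285 of the 692 positive features (41.2%, against 31.7% of all features with a positive value), and the farthest and lower in 312 of the 586 negative ones (53.2%, against 35.6%). ALAN day was the farthest and lower in 190 positive features (27.5%, against 23.6%) and the farthest and higher in 125 negative ones (21.3%, against 22.6%). Control night was the farthest and lower in 131 positive features (18.9%, the same share as in all features with a positive value), and ALAN night was the farthest and higher in 86 (12.4%, against 20.3%). Control day was the commonest outlying group in the whole data as well. Both day groups have 3 libraries and both night groups have 4, so a day mean is the less precise. Whether that set the order of the groups was not tested.

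**Figure D1:**
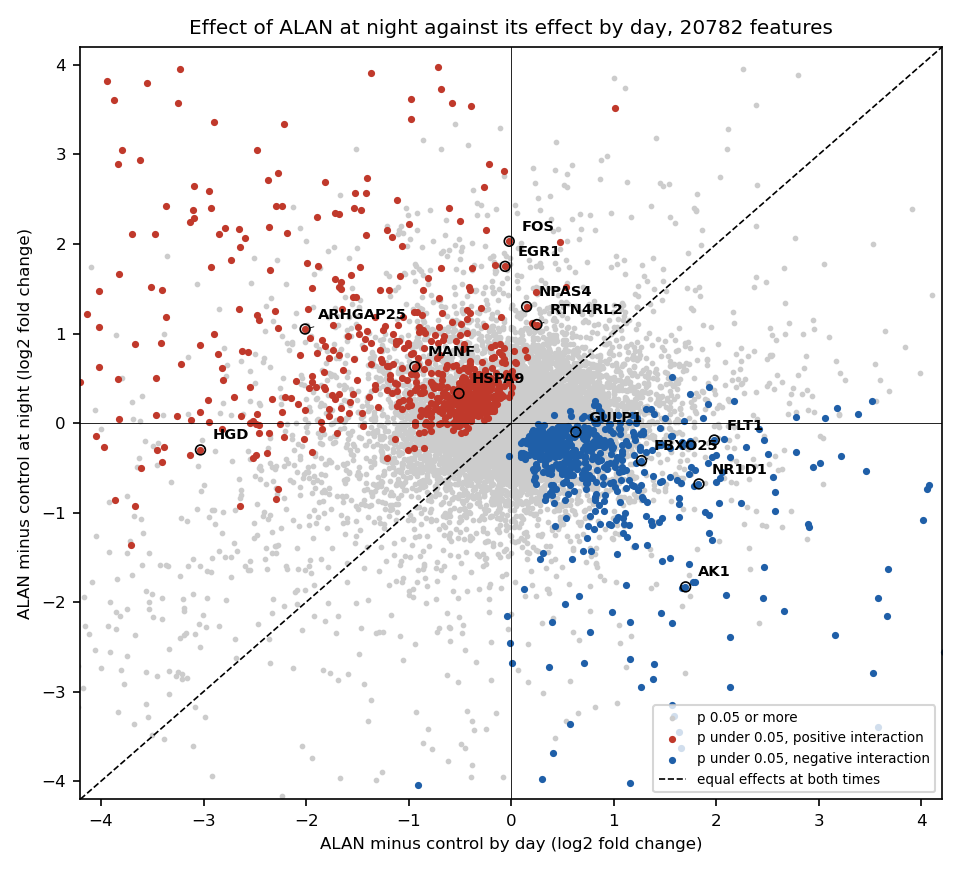
Effect of ALAN at night (vertical axis) against its effect by day (horizontal axis), both as log2 fold changes, with 1 point per tested feature; features beyond the axes are not drawn. Coloured points have an unadjusted interaction p under 0.05, red above and blue below the dashed line of equal effects; FOS lies at 2.03 at night and -0.02 by day, and NR1D1 at -0.68 and 1.83.

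FOS, a subunit of the AP-1 transcription factor, had the smallest interaction p. Its level was 42.5, 44.4 and 64.0 CPM in control day brains, and 49.2, 58.6 and 40.9 CPM in ALAN day brains. It was 12.5, 11.2, 11.5 and 15.3 CPM in control night brains, and 65.1, 40.1, 59.5 and 42.4 CPM in ALAN night brains. All 4 control night brains lay below the other 10, and the 3 other groups overlapped. The interaction was 2.06 (SE 0.296, 95% interval 1.42 to 2.69; unadjusted p 8.17e-06, edgeR adjusted p 0.121). At night FOS rose with ALAN by 2.03 on the log2 scale (edgeR adjusted p 0.00211), while the effect by day was -0.02 (adjusted p 0.994). In controls it was lower at night than by day by a log2 value of -1.99 (edgeR adjusted p 0.000130), and under ALAN the night minus day value was 0.06 (adjusted p 0.956).

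EGR1, a zinc-finger transcription factor induced by neuronal firing, had the same arrangement in feature DN67897. Control day brains held 38.6, 33.0 and 58.2 CPM and ALAN day brains 52.2, 44.0 and 28.5 CPM. Control night brains held 8.03, 9.61, 10.1 and 13.7 CPM and ALAN night brains 36.2, 30.0, 40.6 and 33.0 CPM. Control night again lay below all other libraries. The interaction was 1.81 (SE 0.342, 95% interval 1.07 to 2.54; unadjusted p 0.000129, edgeR adjusted p 0.384). EGR1 rose with ALAN at night by 1.75 (edgeR adjusted p 0.0153), and its effect by day was -0.06. A second feature named EGR1, DN8733, held 83.8 to 89.7 CPM in control night and 118 to 137 CPM in ALAN night brains, with an interaction of 0.48 (SE 0.205, unadjusted p 0.0354, edgeR adjusted p 0.763).

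NPAS4, a transcription factor induced by calcium entry into neurons, was represented by 2 features. DN12604 held 15.9, 16.3 and 20.7 CPM in control day, 22.1, 19.9 and 16.6 CPM in ALAN day, 4.68, 4.70, 5.60 and 6.71 CPM in control night and 14.7, 12.5, 13.8 and 12.6 CPM in ALAN night brains. At night it rose with ALAN in all 4 brains beyond every control, by 1.30 (edgeR adjusted p 0.0147). The level under ALAN at night nevertheless stayed below all 6 day brains. Its interaction was 1.15 (SE 0.239, 95% interval 0.64 to 1.67; unadjusted p 0.000303, edgeR adjusted p 0.503). The other feature, DN7275, had an interaction of 0.38 (unadjusted p 0.321, edgeR adjusted p 0.917), with 10.3 to 27.0 CPM in control night and 24.0 to 26.1 CPM in ALAN night brains.

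RTN4RL2, a member of the Nogo receptor family that limits axon growth, had a like arrangement. Feature DN6473 held 38.9, 53.4 and 56.3 CPM in control day brains and 58.4, 69.0 and 49.7 CPM in ALAN day brains. It held 16.5, 16.8, 18.7 and 17.8 CPM in control night and 36.5, 44.4, 34.6 and 33.7 CPM in ALAN night brains. Control night was below all others, and ALAN night overlapped control day in part. It rose with ALAN at night by 1.10 (edgeR adjusted p 0.0153), and the interaction was 0.84 (SE 0.217, 95% interval 0.38 to 1.31; unadjusted p 0.00171, edgeR adjusted p 0.596). A second RTN4RL2 feature, DN8334, had 0.32 (unadjusted p 0.0869, edgeR adjusted p 0.839). DN6473 was the only 1 of 12 features of the Nogo receptor list at an unadjusted p under 0.05 (8.33%, against 6.15% of all features). The median interaction of that list was -0.14.

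Of the 31 tested immediate-early features, 8 had an unadjusted interaction p under 0.05, all with a positive sign, compared with 3.33% of all features. The median interaction of the list was 0.39, compared with -0.02 over all features. The level of all 4 control night brains lay below that of the other 10 in 11 of the 31 features, a pattern held by 50 of 20782 features in all (0.241%). Those 11 were FOS, both EGR1 features, NPAS4 DN12604, JUND DN13545_c0_g1, EGR2 DN13711, IER2, SIK1 DN4663, EGR4, FOSB and NR4A1 DN9123. Summed over the list, control night brains held 871 to 939 CPM, ALAN night brains 1088 to 1159 CPM, control day brains 1205 to 1414 CPM and ALAN day brains 1225 to 1594 CPM. Like the other fixed lists, this list was chosen with earlier results of these data known. Its shares are therefore a description and not a test.

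For EGR2 and FOSB the level at night under ALAN lay between the control night and the day levels, and for IER2 it reached the day levels. EGR2 DN13711, a zinc-finger factor related to EGR1, held 31.0, 41.1 and 37.2 CPM in control day, 45.5, 58.2 and 25.4 CPM in ALAN day, 4.16, 4.30, 3.45 and 5.17 CPM in control night and 10.1, 16.8, 8.14 and 12.2 CPM in ALAN night brains. Its interaction was 1.22 (SE 0.392, unadjusted p 0.00785, edgeR adjusted p 0.685), and under ALAN it was still lower at night than by day by a log2 value of -1.87 (edgeR adjusted p 0.00287). FOSB, another AP-1 subunit, held 3.80 to 5.21 CPM in control day, 5.72 to 6.67 CPM in ALAN day, 0.578 to 0.701 CPM in control night and 1.61 to 2.15 CPM in ALAN night brains. The interaction of FOSB was 0.98 (SE 0.351, unadjusted p 0.0145, edgeR adjusted p 0.735). IER2, annotated as an immediate early response gene, held 14.7 to 27.1 CPM in control night and 39.6 to 46.0 CPM in ALAN night brains. All but the highest ALAN night value lay within the 33.8 to 45.4 CPM of the day brains. The interaction of IER2 was 0.69 (SE 0.254, unadjusted p 0.0170, edgeR adjusted p 0.735).

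Several immediate-early features had interactions near 0. JUNB, an AP-1 subunit, had an interaction of 0.05 with 176 to 218 CPM in control night and 196 to 248 CPM in ALAN night brains. FOSL2 had an interaction of -0.08, and HOMER1 DN1291_c1_g1, a scaffold of the synapse, one of 0.04. The widest departure in the negative direction was NR4A3, an orphan nuclear receptor, at -0.79 (SE 0.521, unadjusted p 0.152, edgeR adjusted p 0.896).

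The list of delayed activity-regulated genes, which follow immediate-early induction, had a median of 0.09. At an unadjusted p under 0.05, 2 of its 33 features were positive and 1 negative, against 3.33% and 2.82% of all features. SCG2 DN8114, a secretogranin of dense-core vesicles, held 161, 113 and 168 CPM in control day, 103, 132 and 98.0 CPM in ALAN day, 75.4, 75.5, 50.7 and 52.3 CPM in control night and 91.9, 120, 73.2 and 101 CPM in ALAN night brains. Its groups overlapped, and its interaction was 1.02 (SE 0.290, unadjusted p 0.00362, edgeR adjusted p 0.596). The other SCG2 features, DN31922 and DN7515, had 0.54 and 0.10 (unadjusted p 0.125 and 0.545, edgeR adjusted p 0.875 and 0.962). PLK2, a kinase of synaptic scaling, had an interaction of 0.49 (unadjusted p 0.0431, edgeR adjusted p 0.790). NTRK2 DN1_c2_g1, the receptor of BDNF, had -0.49 (unadjusted p 0.0400, edgeR adjusted p 0.772), and DN1_c2_g2 of the same name -0.44 (unadjusted p 0.296, edgeR adjusted p 0.915).

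**Figure D2:**
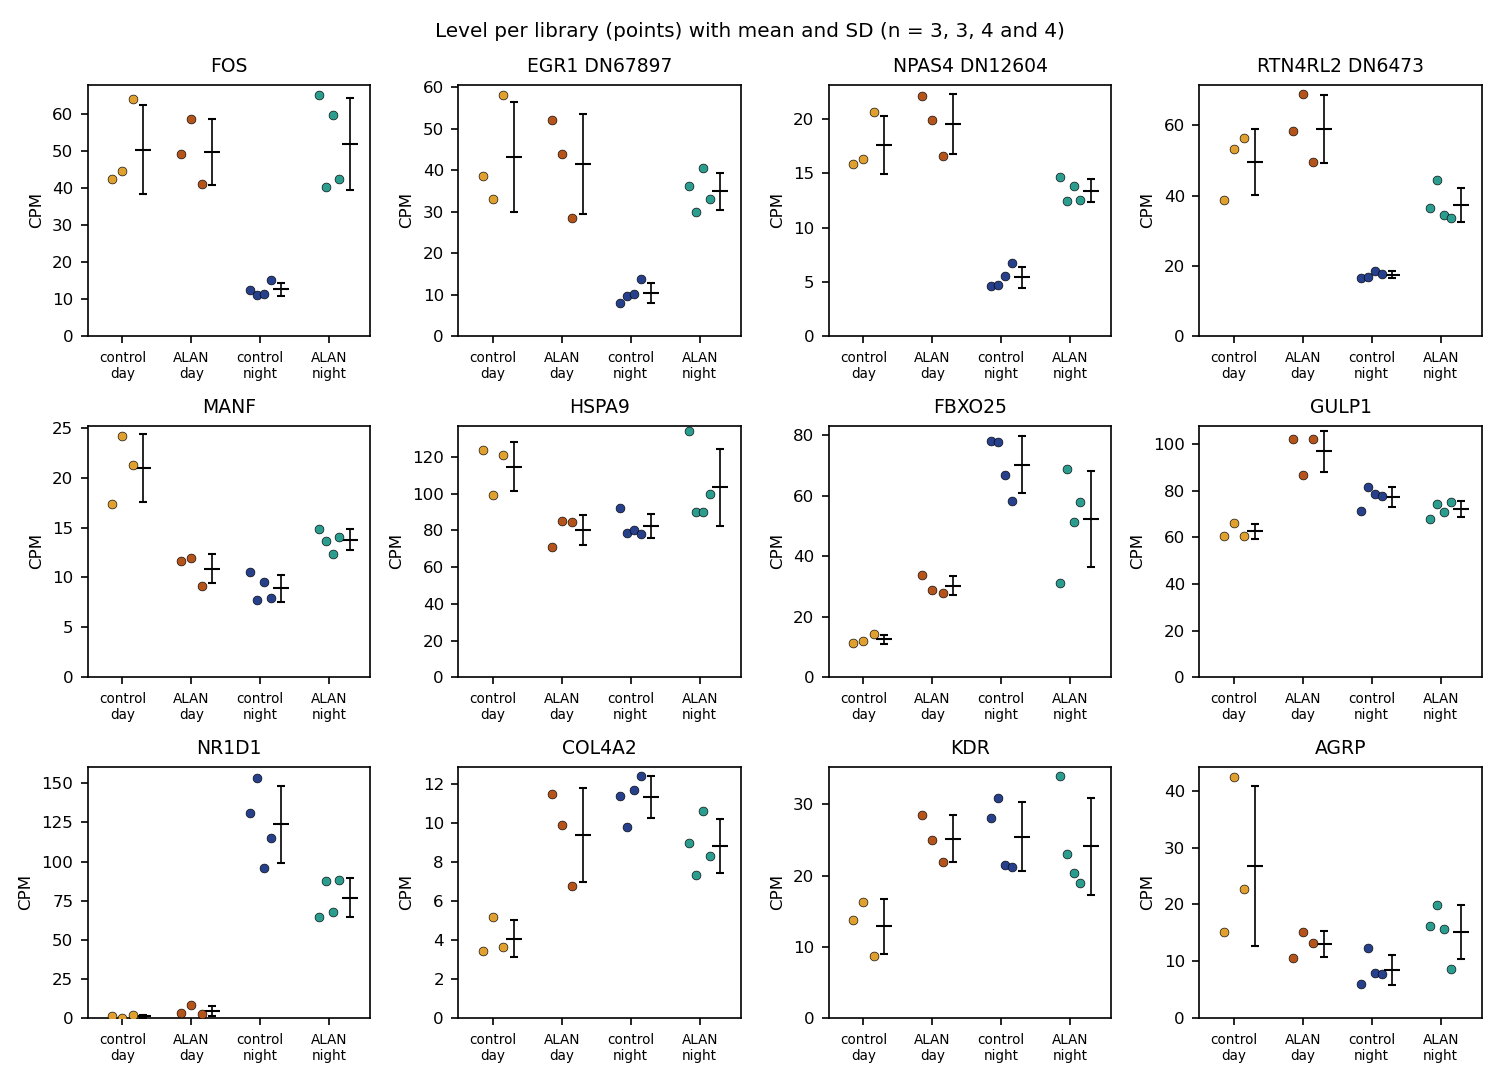
Level in CPM of 12 features in each library (points), with the group mean and SD beside them (n = 3, 3, 4 and 4). In the top row control night lies below the other groups (FOS, 11.2 to 15.3 CPM), while control day stands apart for MANF (17.4 to 24.2 CPM), FBXO25 (11.5 to 14.3 CPM), COL4A2 and KDR, and for GULP1 ALAN day lies above the rest (86.9 to 102 CPM).

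MANF, a secreted factor of the endoplasmic reticulum that protects neurons under protein-folding stress, had the second smallest p. Its level was 17.4, 24.2 and 21.3 CPM in control day brains and 11.6, 11.9 and 9.19 CPM in ALAN day brains. It was 10.5, 7.71, 9.52 and 7.91 CPM in control night and 14.9, 13.7, 12.4 and 14.1 CPM in ALAN night brains. ALAN and control brains did not overlap at either time, with ALAN lower by day and higher at night. The interaction was 1.57 (SE 0.234, 95% interval 1.07 to 2.08; unadjusted p 1.16e-05, edgeR adjusted p 0.121). Neither effect of ALAN passed its own test (0.63 at night, edgeR adjusted p 0.865; -0.94 by day, adjusted p 0.160). In controls MANF was lower at night than by day by a log2 value of -1.24 (edgeR adjusted p 0.00102), and under ALAN the value was 0.34 (adjusted p 0.486).

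Among other protein-folding genes, HSPA9 and HSP90AA1 also had positive values. HSPA9, the mitochondrial HSP70, held 124, 99.3 and 121 CPM in control day, 71.0, 85.0 and 84.8 CPM in ALAN day, 92.3, 78.6, 80.5 and 78.2 CPM in control night and 134, 89.8, 90.0 and 100 CPM in ALAN night brains. By day ALAN was below every control, and at night the groups overlapped. Its interaction was 0.84 (SE 0.206, 95% interval 0.40 to 1.29; unadjusted p 0.00115, edgeR adjusted p 0.596). HSP90AA1 DN1893_c0_g2, a cytosolic chaperone, held 357, 402 and 441 CPM in control day brains and 254 to 317 CPM in ALAN day brains. It held 160 to 222 CPM in control night and 201 to 235 CPM in ALAN night brains, and its interaction was 0.66 (SE 0.175, unadjusted p 0.00220, edgeR adjusted p 0.596).

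In the list of heat shock proteins and co-chaperones, 6 of 28 features had a positive interaction at an unadjusted p under 0.05, against 3.33% of all features, and none a negative one. The values of the list were positive in 19 of the 28, with a median of 0.28. DNAJB5 DN75560, an HSP40 co-chaperone, had 0.91 (SE 0.305, unadjusted p 0.0100, edgeR adjusted p 0.705), with 118 to 209 CPM in control night and 223 to 294 CPM in ALAN night brains, while DNAJB5 DN6974_c0_g1 had 0.27 (unadjusted p 0.258, edgeR adjusted p 0.911). HSPA5, the main HSP70 of the endoplasmic reticulum, had 0.48 (SE 0.181, unadjusted p 0.0186, edgeR adjusted p 0.735). A list of 24 chaperones and stress sensors of the endoplasmic reticulum was drawn up after the value of MANF had been seen and is given as a description only. Its median interaction was 0.30. CRELD2, a secreted partner of MANF in that stress response, held 21.2 to 24.6 CPM in control day brains and 8.96 to 16.2 CPM in ALAN day brains, while XBP1, DDIT3 and both ATF4 features had interactions between -0.05 and 0.30.

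SLMO2 DN10_c6_g1, a lipid transfer protein of mitochondria also called PRELID3B, held 34.9, 26.2 and 26.4 CPM in control day, 15, 19.0 and 20.7 CPM in ALAN day, 16.9, 17.2, 20.1 and 23.4 CPM in control night and 29.8, 22.3, 31.6 and 24.9 CPM in ALAN night brains. By day its ALAN brains lay below the controls, and at night they overlapped. The interaction was 1.16 (SE 0.249, unadjusted p 0.000402, edgeR adjusted p 0.503), and for a second SLMO2 feature, DN534, it was 0.91 (unadjusted p 0.00696, edgeR adjusted p 0.685). FTSJ3, a methyltransferase of ribosomal RNA processing, held 12.7 to 14.0 CPM in control day brains, 9.14 to 9.96 CPM in ALAN day, 11.2 to 12.5 CPM in control night and 12.6 to 15.4 CPM in ALAN night brains, and its groups were separate at both times. Its interaction was 0.72 (SE 0.178, unadjusted p 0.00121, edgeR adjusted p 0.596).

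Markers of other tissues were also high in the 3 control day brains, in which MANF, HSP90AA1 and CRELD2 were high. HSPA9 and SLMO2 DN10_c6_g1 were not high in control day brains alone. Their ALAN night brains (89.8 to 134 and 22.3 to 31.6 CPM) overlapped control day (99.3 to 124 and 26.2 to 34.9 CPM). The liver and plasma list summed to 809 to 1708 CPM in control day brains and to 249 to 694 CPM in the 11 others. The inner ear list summed to 131 to 183 CPM against 79.4 to 114 CPM. With the sums of the photoreceptor, muscle and liver lists as covariates, the interaction was 1.4 for MANF (unadjusted p 0.00151), 1.02 for HSPA9 (unadjusted p 0.00429) and 1.32 for SLMO2 DN10_c6_g1 (unadjusted p 0.00447). With the inner ear sum in their place it was 1.62, 0.67 and 1.10. HSP90AA1 had 0.55 with the 3 sums (unadjusted p 0.0786) and 0.91 with the inner ear sum (unadjusted p 0.00156). DNAJB5 DN75560 had 0.19 with the 3 sums (unadjusted p 0.616), and CRELD2 had 0.41 with the inner ear sum (unadjusted p 0.322). Since the liver and inner ear sums set control day apart from every other library, these fits cannot separate other tissue from the control day group.

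In the citrate cycle list, 5 of 41 features had a positive interaction at an unadjusted p under 0.05, against 3.33% of all features, and none a negative one, and the median was 0.24. SDHB DN307_c0_g3, the iron-sulphur subunit of succinate dehydrogenase, held 169, 144 and 198 CPM in control day brains and 171, 141 and 174 CPM in ALAN day brains. It held 62.4, 53.3, 51.4 and 57.9 CPM in control night and 140, 59.9, 119 and 84.1 CPM in ALAN night brains, where the spread was wide. Its interaction was 0.92 (SE 0.319, unadjusted p 0.0127, edgeR adjusted p 0.729), and that of SDHB DN307_c0_g1 was 0.17 (unadjusted p 0.274, edgeR adjusted p 0.912). Of 3 features named IDH2, mitochondrial isocitrate dehydrogenase, DN9153_c0_g1 had 0.85 (unadjusted p 0.0125, edgeR adjusted p 0.728), DN9153_c0_g2 had 0.05 (unadjusted p 0.753, edgeR adjusted p 0.981) and DN40776 had 1.01 (unadjusted p 0.508, edgeR adjusted p 0.959). FH, fumarase, had 0.50 (unadjusted p 0.0338, edgeR adjusted p 0.756). The value of pck2, a gluconeogenic enzyme, was 3.64 (SE 1.14, unadjusted p 0.00684, edgeR adjusted p 0.685), with 1 ALAN night brain at 14.5 CPM and the other 3 between 0.870 and 4.35 CPM.

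ARHGAP25, which switches off the GTPase Rac in blood cells, was named by 2 features, both among the 15 positive features of smallest p. DN2051_c0_g3 held 14.7, 7.98 and 12.2 CPM in control day, 4.19, 4.91 and 5.51 CPM in ALAN day, 4.00 to 4.79 CPM in control night and 4.84 to 14.9 CPM in ALAN night brains, with an interaction of 2.29 (SE 0.462, unadjusted p 0.000226, edgeR adjusted p 0.469). DN16198 had 3.06 (SE 0.666, unadjusted p 0.000459, edgeR adjusted p 0.530). With the summed levels of the photoreceptor, muscle and liver lists as covariates the unadjusted p was 0.0537 and 0.0867. SLA2, an adaptor of antigen-receptor signalling in lymphocytes, held 52.7 to 65.7 CPM in control day, 29.9 to 39.7 CPM in ALAN day, 21.8 to 39.5 CPM in control night and 35.2 to 47.0 CPM in ALAN night brains. Its interaction was 1.15 (SE 0.256, unadjusted p 0.000546, edgeR adjusted p 0.540). FAM19A2, a secreted chemokine-like protein of the brain, had 1.46 (SE 0.358, unadjusted p 0.00121, edgeR adjusted p 0.596).

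Among hypothalamic and sleep neuropeptides, AGRP was the 1 feature of 19 at an unadjusted p under 0.05 (5.26%, against 6.15% of all features). The list median was 0.17. AGRP is the appetite-raising peptide of the hypothalamus. It held 15.2, 42.4 and 22.8 CPM in control day, 10.6, 15.2 and 13.2 CPM in ALAN day, 5.95, 12.3, 7.88 and 7.78 CPM in control night and 16.3, 19.9, 15.7 and 8.66 CPM in ALAN night brains. The control and ALAN groups overlapped at night and met at 15.2 CPM by day. Its interaction was 1.88 (SE 0.495, 95% interval 0.82 to 2.95; unadjusted p 0.00203, edgeR adjusted p 0.596). The AGRP feature shares its assembly component with a feature named TEF. In the stress axis list, CRH, the hypothalamic releasing hormone that starts the cortisol response, was the 1 of 21 features at that threshold (4.76%, against 6.15%). It had 0.63 (SE 0.240, unadjusted p 0.0197, edgeR adjusted p 0.735), and the list median was -0.05.

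NR1D1 (REV-ERB alpha), a repressor of the clock loop, had the most negative interaction of the 41 tested core clock features. It held 1.29, 0.489 and 2.22 CPM in control day brains and 3.5, 8.27 and 2.44 CPM in ALAN day brains. It held 131, 153, 95.6 and 115 CPM in control night and 64.6, 87.8, 67.8 and 88.0 CPM in ALAN night brains. ALAN brains lay above controls by day and below them at night, without overlap at either time. The interaction was -2.51 (SE 0.582, 95% interval -3.76 to -1.25; unadjusted p 0.000782, edgeR adjusted p 0.596). NR1D1 was higher at night than by day by 6.54 in controls (edgeR adjusted p 5.26e-06) and by 4.03 under ALAN (adjusted p 0.000154). The 3 control day brains together held 65 counts of NR1D1, so the day side of the contrast rests on few reads.

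Its relative NR1D2 had the same sign in both of its features. DN1975_c0_g1 held 15.2, 20.7 and 35.4 CPM in control day brains and 50, 51.9 and 37.5 CPM in ALAN day brains, without overlap, and 97.6 to 138 CPM in control night and 104 to 121 CPM in ALAN night brains. Its interaction was -0.98 (SE 0.323, 95% interval -1.67 to -0.28; unadjusted p 0.00934, edgeR adjusted p 0.685). DN9051 held 25.6, 34.5 and 37.3 CPM in control day brains and 49.3, 51.3 and 44.3 CPM in ALAN day brains, again without overlap, and its interaction was -0.44 (SE 0.195, unadjusted p 0.0409, edgeR adjusted p 0.776). A feature with no gene name whose annotation text places it in the NR1D family, DN7722, held 61.5, 100 and 79.1 CPM in control day brains and 169, 118 and 165 CPM in ALAN day brains. It held 146 to 216 CPM in control night and 59.4 to 147 CPM in ALAN night brains, and its interaction was -1.78 (SE 0.368, 95% interval -2.57 to -0.99; unadjusted p 0.000284, edgeR adjusted p 0.503). The gap between the highest control day and the lowest ALAN day brain was narrow for NR1D1 (2.22 against 2.44 CPM). It was narrow for NR1D2 DN1975_c0_g1 as well (35.4 against 37.5 CPM). These features were named for their small p or their family, and the share of all features separated by day was not counted. None of these day effects of ALAN passed its own test (edgeR adjusted p 0.411 for NR1D1, 0.384 for both NR1D2 features and 0.491 for DN7722).

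Other repressors of the loop divided. PER1, a period gene, held 2.94, 3.42 and 3.33 CPM in control day brains and 7.10, 3.88 and 3.79 CPM in ALAN day brains, against 73.3 to 116 CPM in control night and 69.8 to 97.0 CPM in ALAN night brains, with an interaction of -0.76 (SE 0.312, 95% interval -1.43 to -0.09; unadjusted p 0.0290, edgeR adjusted p 0.747). The ciart feature DN72205, of a circadian repressor, held 0.0585 to 0.380 CPM in control day, 0.628 to 1.19 CPM in ALAN day, 47.6 to 102 CPM in control night and 45.5 to 73.0 CPM in ALAN night brains. Its interaction was -2.49 (SE 0.670, unadjusted p 0.00242, edgeR adjusted p 0.596), on 9 counts in all in the control day brains. The other CIART feature, DN1024, had -0.87 (unadjusted p 0.54, edgeR adjusted p 0.961). Cry2 DN1907_c0_g1, described in the annotation as cryptochrome circadian clock 1ba, was the 1 clock feature with a positive interaction at an unadjusted p under 0.05. It held 134, 131 and 141 CPM in control day, 136, 137 and 131 CPM in ALAN day, 57.4, 65.5, 78.8 and 72.7 CPM in control night and 112, 93.1, 105 and 93.1 CPM in ALAN night brains. As with FOS, control night lay below the other 10, and the interaction was 0.56 (SE 0.159, 95% interval 0.22 to 0.90, unadjusted p 0.00335, edgeR adjusted p 0.596). The other features named CRY2, DN11246 and DN17362, had -0.77 and -1.12 (unadjusted p 0.201 and 0.217, edgeR adjusted p 0.897 and 0.9). For PER2, features DN2810 and DN4896_c1_g1 had 0.32 and 0.46 (unadjusted p 0.199 and 0.212, edgeR adjusted p 0.896 and 0.898).

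For PER3, BHLHE41, BHLHE40 and TEF DN673 the interval of the interaction was narrow and included 0. PER3 was higher at night by 3.55 in controls (edgeR adjusted p 2.58e-09) and by 3.73 under ALAN (adjusted p 2.38e-09), and its interaction was 0.18 (95% interval -0.16 to 0.52). BHLHE41, a repressor also called DEC2, was higher at night by 3.46 and 3.29 (edgeR adjusted p 5.65e-08 and 8.31e-08), with an interaction of -0.17 (95% interval -0.63 to 0.30). BHLHE40 had -0.04 (95% interval -0.45 to 0.37) and TEF DN673, an output transcription factor of the loop, 0.07 (95% interval -0.34 to 0.48). CRY1 had 0.40 (95% interval -0.22 to 1.01). TEF DN16624_c0_g2, higher at night by 4.43 in controls, had a wider interval, with -0.48 (95% interval -1.77 to 0.81). In the activating arm the intervals were wider, with 0.42 for ARNTL (95% interval -1.19 to 2.03) and values from -0.30 to 0.92 over 4 CLOCK features, of which DN2765_c0_g2 had the value 0.92 (95% interval -0.16 to 2.00). Over the 41 tested core clock features, 1 had a positive and 7 a negative interaction at an unadjusted p under 0.05, against 3.33% and 2.82% of all features, and the median was -0.17.

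**Figure D3:**
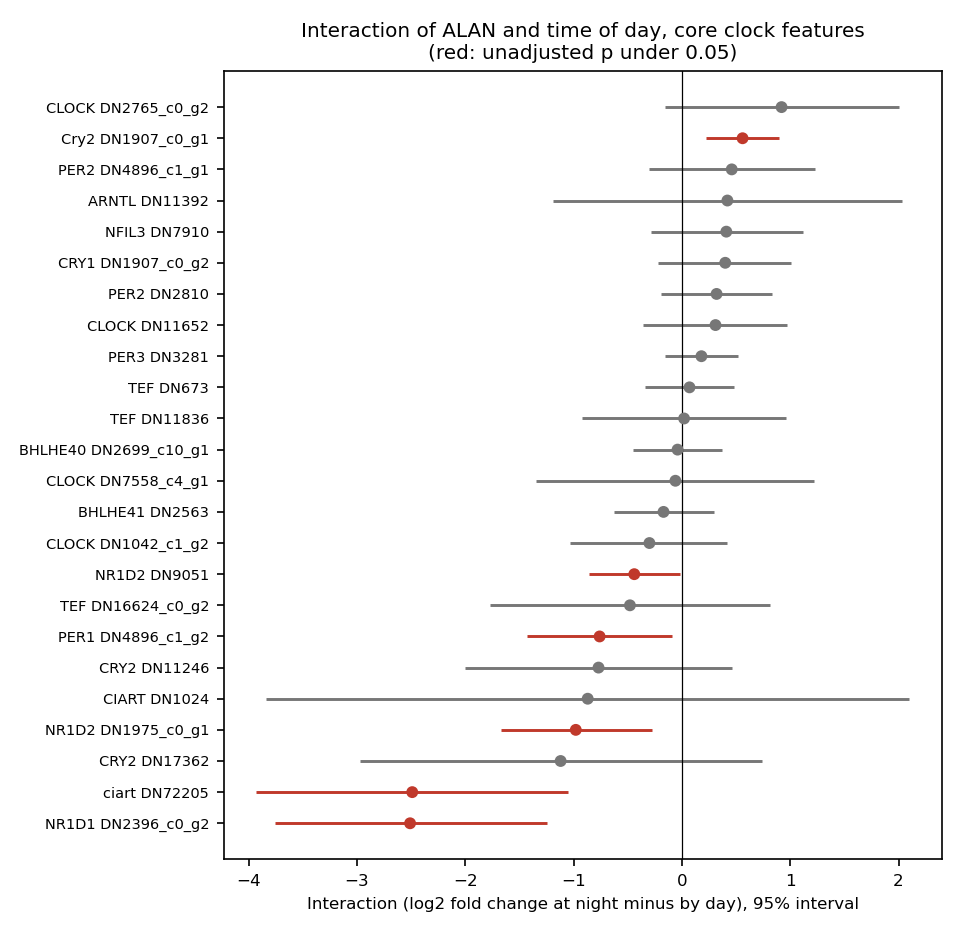
Interaction log2 fold change (points) with its 95% interval (lines) for the 24 named core clock features, ordered by value; red marks an unadjusted p under 0.05. NR1D1 (-2.51) and ciart DN72205 (-2.49) lie farthest below 0, and PER3, BHLHE40, BHLHE41 and TEF DN673 have narrow intervals that include 0.

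FBXO25, an F-box protein of a ubiquitin ligase, had the smallest p among negative interactions. It held 11.5, 11.9 and 14.3 CPM in control day brains and 33.8, 28.9 and 28.0 CPM in ALAN day brains. It held 78.2, 77.7, 67.0 and 58.4 CPM in control night and 31.3, 69.0, 51.4 and 57.8 CPM in ALAN night brains. By day ALAN brains were all above the controls, and at night 1 ALAN brain was far below the other 3. The interaction was -1.69 (SE 0.301, 95% interval -2.34 to -1.04; unadjusted p 7.25e-05, edgeR adjusted p 0.360). In controls FBXO25 was higher at night by 2.48 (edgeR adjusted p 3.79e-05), and under ALAN by 0.79 (adjusted p 0.123).

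GULP1, an adaptor for the engulfment of dying cells, held 60.7, 66.3 and 60.7 CPM in control day, 102, 86.9 and 102 CPM in ALAN day, 71.3, 81.5, 78.8 and 77.7 CPM in control night and 68.0, 74.3, 70.7 and 75.3 CPM in ALAN night brains. The ALAN day brains were above all other 11 libraries and the control day brains below them. The interaction was -0.74 (SE 0.132, 95% interval -1.02 to -0.45; unadjusted p 7.91e-05, edgeR adjusted p 0.360). GULP1 was lower at night than by day under ALAN by a log2 value of -0.43 (edgeR adjusted p 0.0443), while in controls the value was 0.31 (adjusted p 0.128).

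WIPI1 DN3995, which acts in the formation of autophagosomes, held 39.9, 37.4 and 30.3 CPM in control day brains and 48.9, 50.1 and 51.0 CPM in ALAN day brains. It held 49.6, 54.6, 56.2 and 51.4 CPM in control night and 41.0, 44.5, 42.0 and 42.2 CPM in ALAN night brains, with no overlap between ALAN and control at either time. Its interaction was -0.80 (SE 0.149, 95% interval -1.12 to -0.48; unadjusted p 0.000108, edgeR adjusted p 0.374), and that of WIPI1 DN18319 was -0.39 (unadjusted p 0.0927, edgeR adjusted p 0.840). TCP11L2 held 4.59, 5.32 and 6.90 CPM in control day, 8.16 to 10.1 CPM in ALAN day, 27.8 to 40.6 CPM in control night and 20.8 to 32.8 CPM in ALAN night brains. Its night minus day value was 2.66 in controls and 1.57 under ALAN (edgeR adjusted p 7.99e-06 and 0.00110), and the interaction was -1.09 (SE 0.278, unadjusted p 0.00166, edgeR adjusted p 0.596). PFKFB4 DN3375_c1_g1, which sets the level of an activator of glycolysis, held 22.4, 29.5 and 22.8 CPM in control day brains and 42.3 to 57.1 CPM across the 11 other brains, with an interaction of -0.75 (SE 0.192, unadjusted p 0.00176, edgeR adjusted p 0.596), and PFKFB4 DN3375_c2_g2 had -0.07 (unadjusted p 0.691, edgeR adjusted p 0.974).

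The other negative features of smallest p belong to several cell processes. NET1 DN17511, an exchange factor for the GTPase RhoA, had -1.87, RABEP1, which acts in the fusion of early endosomes, -1.20, and C1orf198 -0.99. DEPDC5, which restrains the growth kinase mTORC1 as part of GATOR1, had -1.51, and MIS18A, which acts at centromeres, -2.23. These 5 features had an unadjusted p between 0.000507 and 0.00117 and an edgeR adjusted p of 0.540 or 0.596. The other NET1 features, DN27928 and DN67516, had 0.69 and -0.63 (unadjusted p 0.263 and 0.529, edgeR adjusted p 0.912 and 0.959). With the same 3 covariates the unadjusted p of DEPDC5 was 0.0640 and that of MIS18A 0.0700. AK1, adenylate kinase, had -3.53 (SE 0.908, unadjusted p 0.00174, edgeR adjusted p 0.596), and 1 ALAN day brain held 20.1 CPM where the other day brains held 2.17 to 3.32 CPM. Without that brain the value was -1.89. The third unnamed feature by p, DN87, described as DNA binding, had -1.17 (SE 0.251, unadjusted p 0.000402, edgeR adjusted p 0.503) and held 9.94 to 11 CPM in control day brains and 15.8 to 20.4 CPM in ALAN day brains.

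Several endothelial genes had low levels in control day brains. COL4A2, a collagen of vascular basement membranes, held 3.44, 5.16 and 3.63 CPM in control day, 11.5, 9.87 and 6.75 CPM in ALAN day, 11.4, 9.81, 11.7 and 12.4 CPM in control night and 8.98, 7.32, 10.6 and 8.31 CPM in ALAN night brains. Its interaction was -1.56 (SE 0.311, 95% interval -2.23 to -0.89; unadjusted p 0.000215, edgeR adjusted p 0.469). ELTD1, an adhesion receptor of endothelial cells, held 3.30, 1.79 and 2.28 CPM in control day brains and 6.76 to 18 CPM in the 11 other brains, with an interaction of -1.92 (SE 0.460, unadjusted p 0.00101, edgeR adjusted p 0.596). COL4A2 and ELTD1 are not on the fixed list of endothelium and meninges.

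On that list, 6 of 19 features had a negative interaction at an unadjusted p under 0.05, against 2.82% of all features, and none a positive one, and the median was -0.50. FLT1 DN309_c2_g1, a receptor of vascular endothelial growth factor, held 0.287, 0.760 and 0.409 CPM in control day brains and 1.18 to 2.65 CPM in the 11 other brains, with an interaction of -2.17 (SE 0.562, unadjusted p 0.00184, edgeR adjusted p 0.596). KDR, the second such receptor, held 13.7, 16.3 and 8.66 CPM in control day brains and 19.0 to 34.0 CPM in the others, with -1.04 (SE 0.342, unadjusted p 0.00896, edgeR adjusted p 0.685). PECAM1 DN47628, a junction protein of endothelium, had -1.14 (unadjusted p 0.00625, edgeR adjusted p 0.685), and PECAM1 DN36208 had 0.09 (unadjusted p 0.889, edgeR adjusted p 0.991). KLF2 DN10687, a flow-responsive factor, had -0.75 (unadjusted p 0.0119, edgeR adjusted p 0.724), and KLF2 DN15472 had -0.38 (unadjusted p 0.361, edgeR adjusted p 0.927). Other members of the list did not follow. The interaction was positive in 4 of the 19 features, with LUM highest at 0.50, and CDH5 had -0.01.

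The levels of all 3 control day brains lay below the 11 others in 5 of the 19 endothelial features, a pattern held by 237 of 20782 features in all (1.14%). Summed over the list, control day brains held 135, 163 and 137 CPM, ALAN day brains 219, 214 and 183 CPM, control night brains 206 to 257 CPM and ALAN night brains 216 to 237 CPM. The control day group alone was low, and the 3 other groups overlapped.

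The opposite arrangement, control day high, was frequent among genes of liver and plasma. In the list of liver and plasma proteins, 27 of 36 features were higher in all 3 control day brains than in the 11 others, a pattern held by 223 of 20782 features in all (1.07%). The median interaction of that list was 1.52, and 5 features had a positive and none a negative interaction at an unadjusted p under 0.05, against 3.33% and 2.82% of all features. The median effect of ALAN over the list was negative at both times, -3.5 by day and -1.97 at night on the log2 scale. FGA DN14071, the alpha chain of fibrinogen, held 9.04, 46.9 and 9.36 CPM in control day brains and 0.727 to 4.76 CPM in the 11 others, with an interaction of 3.01 (SE 0.951, unadjusted p 0.00717, edgeR adjusted p 0.685). C5 DN25168, a complement component, had 1.45 (SE 0.581, unadjusted p 0.0263, edgeR adjusted p 0.747), and C5 DN49059 had 0.73 (unadjusted p 0.639, edgeR adjusted p 0.967).

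Enzymes known from liver and kidney were among the positive features of smallest p. HGD, an enzyme of tyrosine breakdown, held 8.68, 19.3 and 9.59 CPM in control day brains and 1.08 to 4.85 CPM in the 11 others, with an interaction of 2.73 (SE 0.655, unadjusted p 0.00101, edgeR adjusted p 0.596). PIPOX, a peroxisomal oxidase of sarcosine, held 4.23, 10.9 and 8.83 CPM in control day brains and 0.770 to 2.22 CPM in the others, with 2.24 (SE 0.545, unadjusted p 0.00115, edgeR adjusted p 0.596). G6PC, the last enzyme of glucose release, held 13.8, 31.4 and 10.4 CPM in control day, 5.87 to 9.18 CPM in ALAN day, 5.55 to 6.99 CPM in control night and 7.46 to 24.1 CPM in ALAN night brains, with 2.50 (SE 0.584, unadjusted p 0.000800, edgeR adjusted p 0.596). The liver and plasma list summed to 869, 1708 and 809 CPM in control day brains, 249 to 522 CPM in ALAN day, 384 to 689 CPM in control night and 332 to 694 CPM in ALAN night brains. With the sums of the photoreceptor, muscle and liver lists as covariates, the interaction was 2.45 for HGD, 1.76 for PIPOX and 3.03 for G6PC (unadjusted p 0.0197, 0.0287 and 0.00266).

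Among the 15 positive features of smallest p, OTOF DN27382 had the largest value. OTOF encodes otoferlin, a calcium sensor of hair-cell synapses. The feature held 7.39, 7.60 and 1.93 CPM in control day, 0.0987 to 0.623 CPM in ALAN day, 0 to 0.500 CPM in control night and 0.568 to 1.87 CPM in ALAN night brains, and its interaction was 5.81 (SE 1.25, unadjusted p 0.000395, edgeR adjusted p 0.503). Another OTOF feature, DN6901_c0_g1, held 29.2 to 55.6 CPM across the 14 libraries with an interaction of 0.07 (SE 0.291). OTOF DN11655 had -0.24 (unadjusted p 0.558, edgeR adjusted p 0.963). OTOF DN6901_c0_g2 and DN8718_c0_g1 had 3.55 and 2.56 (unadjusted p 0.00373 and 0.0424, edgeR adjusted p 0.597 and 0.784). A list of 30 inner ear features was drawn up after these values had been seen and is described without a test. TECTB, a matrix protein of the inner ear, held 18.2, 12.3 and 3.92 CPM in control day brains and 0 to 1.4 CPM in the 11 other brains, and OTOL1 DN42126, a collagen-like protein of otoliths, held 1.87 to 5.16 CPM against 0 to 0.376 CPM. The other OTOL1 feature, DN100329_c0_g1, had an interaction of -0.33 (unadjusted p 0.713, edgeR adjusted p 0.976). All 3 control day brains lay above the 11 others in 6 of the 30 features, against 1.07% of all features. Interactions were positive in 24 of the 30, and the lowest was -1.45 for OC90 DN22790. Summed over the list, control day brains held 183, 144 and 131 CPM and the 11 others 79.4 to 114 CPM.

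The unnamed feature with the smallest p, DN2587, is described as an S100 calcium-binding protein. It held 49.3, 29.8 and 10.7 CPM in control day brains, on 1420 counts in all. ALAN day brains held 0.0493 to 0.260 CPM on 8 counts, ALAN night brains 0 to 0.237 CPM on 7 counts and control night brains 0 counts, so no fold is given for it. The unadjusted p of its interaction was 0.000161 (edgeR adjusted p 0.417).

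Skeletal muscle markers were high in only some control day brains, with a summed level of 1129, 235 and 941 CPM in control day brains and 205 to 439 CPM in the 11 others, and a median interaction of 0.59 over 30 features, none at an unadjusted p under 0.05. Photoreceptor markers had a median of -0.85 over 36 features. At that threshold 5 of them were negative and none positive, against 2.82% and 3.33% of all features. Control night replicate 4 held 2164 CPM of them and the other 13 libraries 96.3 to 496 CPM. Pituitary markers ran from 2.87 to 1295 CPM across libraries. ALAN day replicates 1 and 2 held 768 and 1228 CPM, control night replicate 4 held 410 CPM and ALAN night replicate 2 held 1295 CPM. All other libraries, every control day brain among them, held 2.87 to 45.3 CPM. Of the pituitary list, 1 of 5 features, prl DN74363, had a negative interaction at an unadjusted p under 0.05 (median -0.61). The 2 others named Prl had -0.21 and -0.61. Red blood cell markers ran from 1011 to 6079 CPM with a median of -0.25 over 8 features, none at that threshold.

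**Figure D4:**
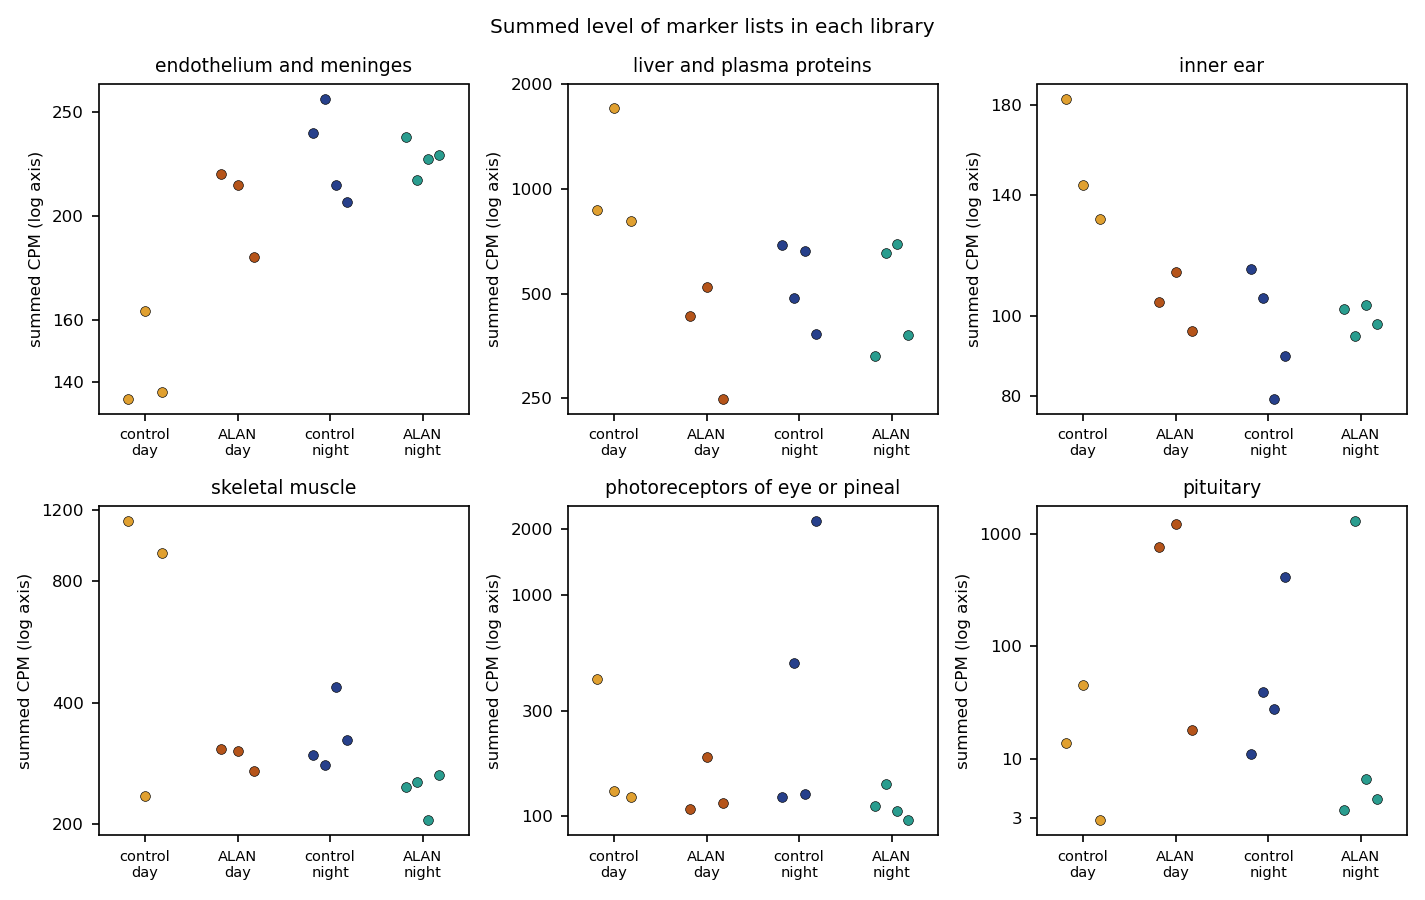
Summed level in CPM (log axis) of 6 marker lists, with 1 point per library in each of the 4 groups. Control day lies below the other groups for endothelium and meninges (135 to 163 CPM) and above them for liver and plasma proteins (809 to 1708 CPM) and inner ear (131 to 183 CPM). Control night replicate 4 stands highest for photoreceptors. For pituitary, ALAN day replicates 1 and 2, control night replicate 4 and ALAN night replicate 2 stand high (410 to 1295 CPM).

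With the sums of the photoreceptor, muscle and liver lists as covariates in the edgeR model, 971 features had an unadjusted p under 0.05 and 49.1% of them were positive, compared with 54.1% without covariates. Of the 30 named features of smallest p, 26 kept an unadjusted p under 0.05. FOS then had an interaction of 2.12, MANF 1.4, EGR1 DN67897 1.65, NPAS4 DN12604 1.17, FBXO25 -2.20 and NR1D1 -3.42. With the sum of the inner ear list as a covariate, an alternative chosen after seeing the data, all 30 kept it. OTOF DN27382, itself part of that sum, had 4.09 there. Each of the 30 also kept an unadjusted p under 0.05 with every single library left out. These 30 were chosen by their small p in the same libraries, so keeping an unadjusted p under 0.05 was partly built in. Of the 40 other list features named at that threshold, 14 kept it with the 3 covariates and 19 with the inner ear covariate. The share of all features at that threshold that kept it is not given here. With the inner ear covariate NR1D2 DN1975_c0_g1 had -0.43 and PER1 -0.31 (unadjusted p 0.270 and 0.453). With the 3 covariates RTN4RL2 DN6473 had 0.59 and EGR2 DN13711 0.84 (unadjusted p 0.105 and 0.146). The liver and inner ear sums both set control day apart from every other library. Adjusting for them therefore overlaps with the contrast itself, and keeping or losing a p does not separate other tissue from group.

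In the other lists few features reached the threshold, which 6.15% of all features passed. No feature had an unadjusted p under 0.05 among 9 of melatonin and non-visual opsins (median 0.00), 10 of thyroid hormone signalling (-0.18), 25 of sterol synthesis (0.06), 19 of radial glia and astroglia (-0.28) or 19 of myelin and oligodendrocytes (-0.25). Among 33 neuronal features 1 was negative, CHAT DN9540, the enzyme that makes acetylcholine, at -1.0 (SE 0.369, unadjusted p 0.0169, edgeR adjusted p 0.735), while CHAT DN8369 had -0.11, and the median was 0.00. Among 36 cell cycle features 1 was positive, RRM2 DN3534_c0_g3, and 1 negative, CCND2 DN53667, with a median of -0.39. The other RRM2 features, DN3534_c0_g1 and DN3534_c0_g2, had -1.03 and 0.33, and ccnd2 DN88149 had -0.25. Among 28 antioxidant and metal-response features 1 was positive, PRDX6 DN4183_c1_g1, at 1.30 (unadjusted p 0.0436, edgeR adjusted p 0.792), while PRDX6 DN2746 had 0.44. Among 24 of microglia and inflammation 1 was negative, LCP1 DN63370_c0_g1, at -4.41 on few counts. LCP1 DN63370_c1_g1 had the opposite sign, at 5.0 (unadjusted p 0.0833, edgeR adjusted p 0.839), and LCP1 DN5120 had 0.05. The medians of the last 2 lists were 0.05 and -0.13.

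**Figure D5:**
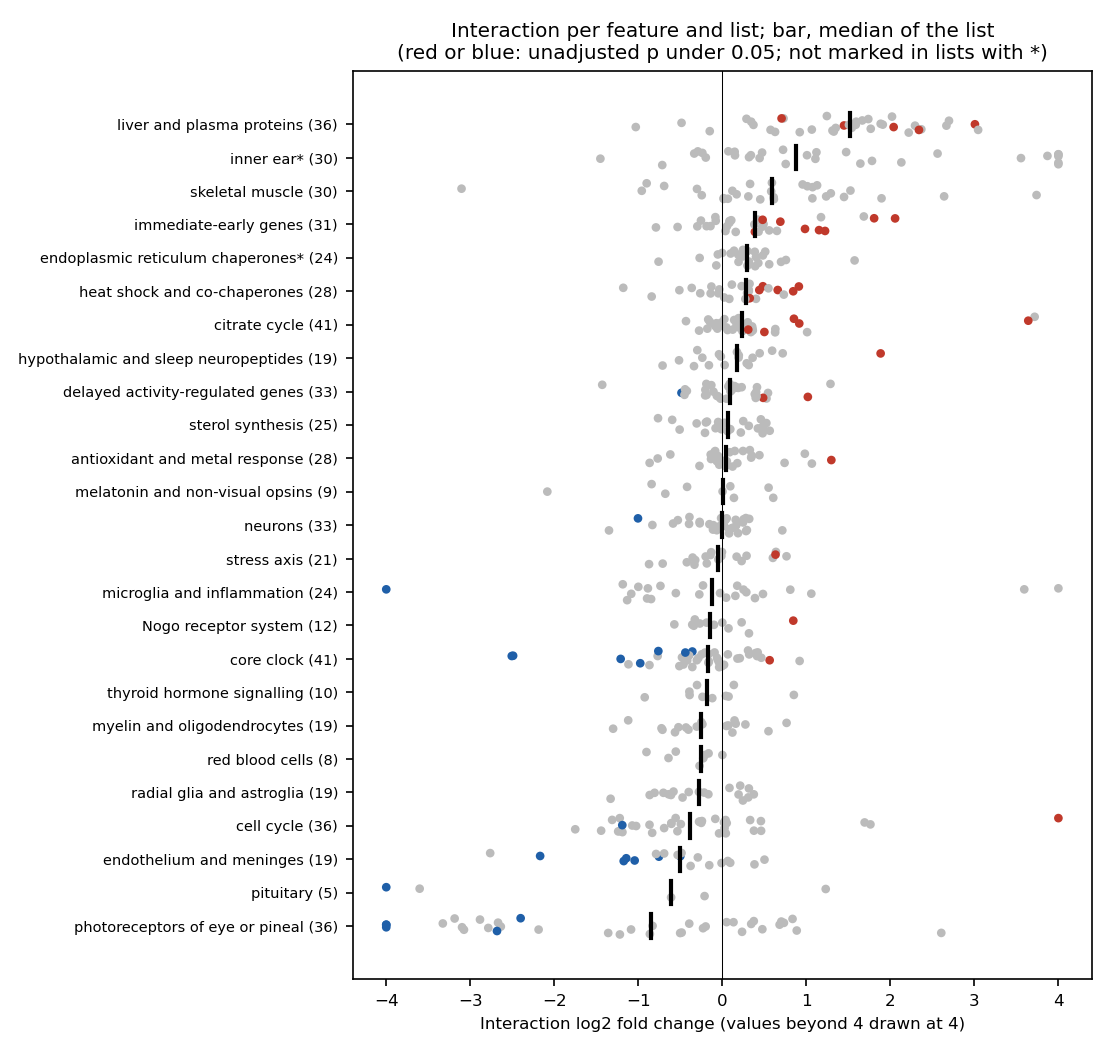
Interaction log2 fold change of each tested feature (points) in 25 gene lists, ordered by list median (bars), with the number of features in brackets; values beyond 4 are drawn at 4. Red and blue mark an unadjusted p under 0.05, not shown for the lists with an asterisk, which were chosen after values were seen; immediate-early, chaperone and citrate cycle points at that threshold are all positive and endothelial ones all negative.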

How the data were processed

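Whole-brain RNA of 14 fish was analysed from the authors' deposited table of expected counts, estimates of which 96.0% were not whole numbers. Per the submitters' processing notes, Trimmomatic 0.39, RSEM and Bowtie2 were used, with no roles given. Per the labels' protocols the libraries were non-stranded, with reads of 150 bases and molecular identifiers of 9 bases; no source used here says whether these were collapsed. Gene names come from the authors' deposited annotation (eggNOG-mapper 2.1.7 per the file headers), which names 18198 of 21805 features with 12751 distinct names, so near-identical copies may divide reads, and without strand overlapping genes cannot be separated. The authors' annotation also gives a bit score for each match, not used in a test. No genome was used, so no positions or sequences are given.

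Expected counts were rounded, filtered with filterByExpr by group (minimum count 10, minimum total 15; 1023 features removed) and TMM-scaled. One edgeR 4.0.16 quasi-likelihood model (R 4.3.3), in which each group had its mean (10 residual degrees of freedom, prior 3.55) gave all contrasts, adjusted by Benjamini-Hochberg over 20782 features. SE is the size of the log2 fold change over the root of its F statistic, and 95% intervals use the t distribution. CPM use TMM-scaled totals and are not divided by length, so levels are not compared between genes.

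Named features were the 15 of smallest interaction p per sign with a gene name and a mean of at least 1 CPM, 3 without a name, all immediate-early features, those of 15 clock genes, and in each other list up to 4 at an unadjusted p under 0.05; others named were chosen after their values were seen. The members and lists were chosen with earlier results of these data known. Features such as RHOA and RHOB, matched by a suffix rule, were taken out after names were seen. Alternatives were DESeq2 1.42.0, limma-voom (limma 3.58.1), other scalings and filters, marker-list sums as covariates and leaving out each library. Groups came from the sample titles.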

Additional observations from a re-analysis of the deposited data

Results flagged for a closer look

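Among 228 night groups of 4 libraries, over 114 features, 9 held a single library far from the other 3, with a gap to them, as a share of the group's range, above Dixon's 95% critical value for 4 samples. Chance flags about 5% of groups, here 11.4. By day the groups have 3 libraries and were not tested.

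ALAN night replicate 1 was low for CRY2 DN17362 (0.914 CPM, others 5.49 to 7.69) and high for jun (108 CPM, others 83.2 to 87.0). ALAN night replicate 2 was high for JUND DN13545_c1_g1 (122 CPM, others 86.7 to 90.3) and HOMER1 DN1802 (46.6 CPM, others 41.1 to 41.9), and ALAN night replicate 3 was high for HOMER1 DN1291_c1_g1 (91.4 CPM, others 83.4 to 84.4). Control night replicate 1 was low for CLOCK DN7558_c4_g1 (2.14 CPM, others 5.60 to 6.37) and IER2 (14.7 CPM, others 25.1 to 27.1). Control night replicate 3 was high for DNAJB5 DN75560 (209 CPM, others 118 to 130), and control night replicate 4 was low for KLF2 DN10687 (20.4 CPM, others 22.4 to 22.6).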

How the results depend on the processing

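The count of features called for interaction was 0 under every alternative except DESeq2, which called 54. The count at an unadjusted p under 0.05, 1278, ranged from 971 (marker-list covariates) to 1552 (DESeq2) among alternatives that kept all libraries, and from 1126 to 1778 with 1 library left out. Without control day replicate 2 it was 1778, and 46.7% of them were positive; with the inner ear covariate it was 1334 and 46.4% positive, in place of 54.1%. The smallest adjusted p of the edgeR and limma alternatives with all libraries lay between 0.0623 (summed by gene name) and 0.967 (marker-list covariates). With the replicate block 0 features were called and 1023 had an unadjusted p under 0.05. Deviations from the group means had a median r of 0.001 over 18 pairs of same-numbered libraries and -0.003 over 55 others. The labels do not say what the numbers stand for, and these r values do not settle it. Over 165 features and 25 settings, 3822 values kept direction and side of the threshold. A further 247 lost and 35 gained an unadjusted p under 0.05, and 3 reversed. RRM2 DN3534_c0_g3 (-0.90) and slc24a1 DN31924 (0.04) reversed when features were summed by gene name, and TMC2 DN21725 (-0.89) with the inner ear covariate. Summing joined RRM2 DN3534_c0_g3 with features at -1.03 and 0.33, and slc24a1 DN31924 with a feature at 2.61. TMC2 DN21725 is itself part of the inner ear sum. Other causes were not tested. Depth limits the low features: NR1D1 and ciart DN72205 rest on 65 and 9 control day counts.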
